A study of Homo sapiens with 16 samples.

Results

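Distal regions open in every library were stretches of chromatin, away from the ends of protein-coding genes, in which each of 16 ATAC-seq libraries listed at least 1 peak. The 16 lists were joined on chromosomes 1 to 22 and X wherever peaks shared 1 base or more, which gave 321056 merged regions. Of these, 24797 held a peak in all 16 libraries, and 10891 of the 24797 lay more than 10 kb from either end of every RefSeq protein-coding gene on hg38. The 10891 members made up 3.39% of all merged regions, 4.39% of the 248215 distal ones and 43.9% of the regions open in every library. The members were chosen by the presence of a peak in each library and by position, so both are given as descriptions with no test.

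ATAC-seq uses the transposase Tn5 to cut and tag accessible DNA. The cells came from organoids enriched in dorsal telencephalon, the forebrain territory that forms the cerebral cortex, which were grown from the human embryonic stem cell line H9. The line carried 2 reporters: P2A-EGFP at the end of the coding sequence on a single SOX2 allele, and dTomato under the promoter of human SYN1 at AAVS1, a site inside PPP1R12C. Sorted SOX2::EGFP+ progenitors and sorted hSyn1::dtomato+ neurons were each taken on days 40, 60, 90 and 120. Each of these 8 groups had 2 libraries, the genotype label was WT throughout, and both populations carried both reporters. The labels leave unsaid whether the line was 1 clone and whether a group's 2 libraries had separate cultures as their source, so the p-values rest on a spread that may be technical.

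Open chromatin far from genes is mostly made of enhancers, to which transcription factors bind, and of sites of the architectural protein CTCF, which anchors chromatin loops. Enhancers tend to open in particular cell types and stages, whereas promoters, CTCF sites and some enhancers near developmental genes stay open across related cells. Neural progenitors divide and express SOX2, and neurons derived from them are postmitotic, and a region with a peak in every library was called open in both of them on every day.

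The members held annotated transcript starts, and the sequences below show such starts, since no hg38 genome was used here and the members' own bases could not be read. Each is a RefSeq window of 300 bases on GRCh38.p14, from 250 bases before to 50 bases after an internal or alternative start of a protein-coding gene, in a member in which all 16 libraries covered the start itself. MBNL2 (chr13:97222083-97222382, plus strand) and SLAIN1 (chr13:77740969-77741268, plus strand) lay in members that were wider in progenitors. DAB1 (chr1:58250454-58250753, minus strand) and PDE1C (chr7:32070813-32071112, minus strand) lay in members that were wider in neurons. ZNF846 (chr19:9768689-9768988, minus strand) lay in the member with the smallest spread over libraries of all. Capitals mark the letters GGGCGG (a GC box) or CCAAT on either strand.
MBNL2: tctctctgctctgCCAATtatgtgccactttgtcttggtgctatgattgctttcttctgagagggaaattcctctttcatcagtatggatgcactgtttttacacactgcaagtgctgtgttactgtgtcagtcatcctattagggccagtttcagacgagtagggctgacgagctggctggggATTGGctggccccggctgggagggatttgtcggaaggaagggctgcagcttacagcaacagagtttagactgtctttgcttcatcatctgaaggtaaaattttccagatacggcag
SLAIN1: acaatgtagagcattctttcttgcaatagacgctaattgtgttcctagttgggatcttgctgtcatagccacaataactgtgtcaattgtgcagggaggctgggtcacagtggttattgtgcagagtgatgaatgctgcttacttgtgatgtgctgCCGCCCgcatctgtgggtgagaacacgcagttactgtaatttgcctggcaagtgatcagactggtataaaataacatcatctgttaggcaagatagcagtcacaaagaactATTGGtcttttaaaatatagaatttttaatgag
DAB1: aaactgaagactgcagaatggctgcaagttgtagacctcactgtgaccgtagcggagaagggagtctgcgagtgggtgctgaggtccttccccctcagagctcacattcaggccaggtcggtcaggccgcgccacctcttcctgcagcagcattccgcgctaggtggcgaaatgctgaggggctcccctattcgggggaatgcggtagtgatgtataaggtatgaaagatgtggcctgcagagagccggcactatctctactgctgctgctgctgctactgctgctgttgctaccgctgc
PDE1C: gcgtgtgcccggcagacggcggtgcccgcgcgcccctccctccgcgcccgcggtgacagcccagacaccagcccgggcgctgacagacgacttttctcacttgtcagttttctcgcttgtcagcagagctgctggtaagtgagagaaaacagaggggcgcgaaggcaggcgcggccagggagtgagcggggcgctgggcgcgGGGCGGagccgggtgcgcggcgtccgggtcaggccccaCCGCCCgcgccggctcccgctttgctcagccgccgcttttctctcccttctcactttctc
ZNF846: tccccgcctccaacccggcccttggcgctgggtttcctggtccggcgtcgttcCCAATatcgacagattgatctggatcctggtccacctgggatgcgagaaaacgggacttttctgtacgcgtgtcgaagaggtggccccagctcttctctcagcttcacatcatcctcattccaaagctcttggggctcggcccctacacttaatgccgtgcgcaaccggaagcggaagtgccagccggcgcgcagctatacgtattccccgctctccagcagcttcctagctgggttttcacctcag
The MBNL2 window had 48.3% GC and the SLAIN1 window 41.7%, against 58.0% in DAB1, 70.7% in PDE1C and 59.3% in ZNF846. CpG dinucleotides numbered 5 in the MBNL2 window, 4 in SLAIN1, 13 in DAB1, 36 in PDE1C and 22 in ZNF846. The DAB1 window held neither motif, which says only that these letters are not in these 300 bases.

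A member also held the hairpin of miR-9-1, a brain microRNA known to limit progenitor proliferation and to promote neuronal differentiation. Its mature strands, from the RefSeq table with the seed (bases 2 to 8) in capitals, are shown because this is a well known neural microRNA among the 22 hairpins found in members. The choice was made after the list had been seen.
hsa-miR-9-5p: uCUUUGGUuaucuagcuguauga
hsa-miR-9-3p: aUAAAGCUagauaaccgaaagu
The member lay at chr1:156419896-156423970, outside protein-coding genes and 34.7 kb from an end of RHBG. Peaks covered between 680 and 2400 of its bases in progenitor libraries (median 1852), against 869 to 3604 in neuron libraries (median 1912.5). The difference of progenitors minus neurons was -0.11 ± 0.13 on the log2 scale (SE), which did not pass the limma test (Benjamini-Hochberg adjusted p = 0.611). Of the 22 members with a hairpin, 2 were called wider in progenitors and 3 in neurons (22.7%), near the 20.6% of all members and above the 16.2% of all regions open in every library. The 22 came from the RefSeq microRNA table. Counted by ends of annotated microRNA genes instead, 32 members (0.294%) held one.

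The read depth behind the lists is unknown, and what they show is how much was called: between 67977 and 138432 peaks used per library, covering 36.9 to 104 Mb. Covered length in the members ran from 7.29 to 14.0 Mb per library, which was 12.1% to 19.8% of all covered bases. Progenitor day 120 replicate 2 stood apart, with the fewest peaks, the smallest covered length and the highest share in members, and neuron day 60 replicate 2 had the list with the second fewest peaks. Transcript starts of 10 radial glia markers set the populations apart only in part. Peaks covered a start of SOX2 in 8 of 8 progenitor and 5 of 8 neuron libraries, and of NES in 6 of 8 progenitor and 0 of 8 neuron libraries. HES1, HES5, FGFR3 and VIM were likewise covered in more progenitor libraries, PAX6, SLC1A3 and FABP7 in all 16, and HOPX in 7 progenitor and 8 neuron libraries. A start of the neuronal genes DCX, SYN1, RBFOX3, MYT1L and GAP43 was covered in all 8 progenitor and all 8 neuron libraries, and these starts were thus listed as open in progenitors too. Starts of 5 of 6 microglial markers and of both liver markers in the table were covered in no library, whereas 2 of 4 endothelial and mural markers, KDR and RGS5, were covered in all 16.

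**Figure D1:**
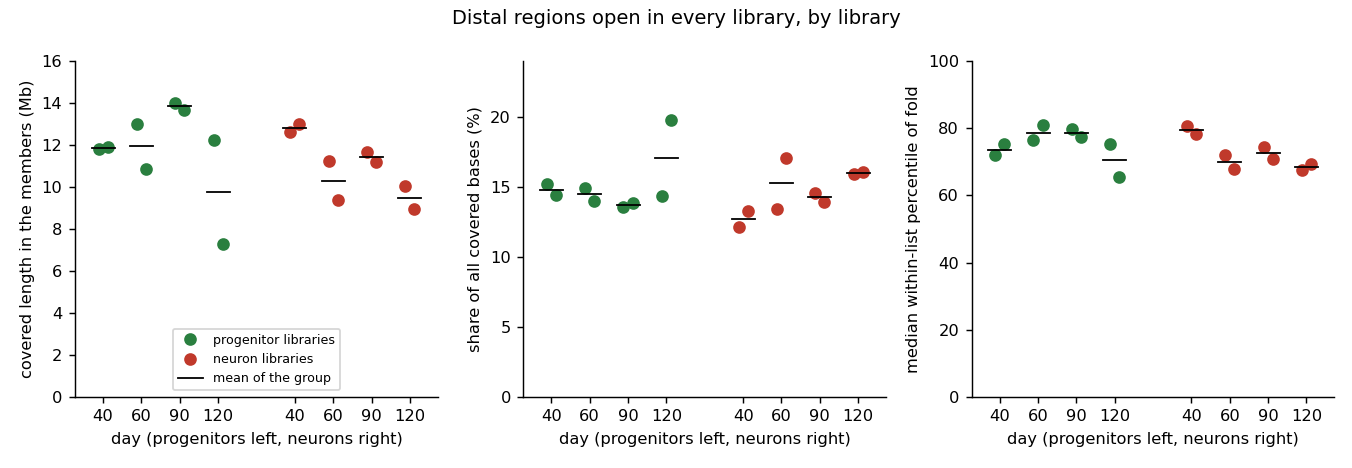
Each point is 1 library, progenitors on the left and neurons on the right of each panel, by day, and the black line is the mean of the 2 libraries of a group. The panels give the covered length in the members (Mb), its share of all covered bases (%) and the members' median percentile of fold enrichment among the peaks of the same list; progenitor day 120 replicate 2 has the lowest covered length, 7.29 Mb, and the highest share, 19.8%.

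Members ranked high among the peaks of their lists, which is a description with no test. The rule asked for a called peak in every list, and calling depends on enrichment, so the rank is not independent of the rule. A region with several peaks in a list took the rank of the highest. The deposited fold enrichment is the authors' own value of a peak and was used only to rank peaks within a list. By library, the members' median percentile lay between 65.5 and 80.9, against 54.3 to 71.2 for distal regions open in 15 libraries and 46.4 to 52.7 for distal regions open in 2 to 15. Regions open in every library near gene ends had a median percentile of 67.4 to 81.8, so that the members stood close to them. Between 18.4% and 29.6% of the 1000 peaks with the highest fold in each list lay in members, whose peaks were 8.26% to 17% of the list. The rank varied widely all the same: 3301 members (30.3%) were above the median of their list in every library, 165 were always in the top 10%, and 115 were always below the median. The fold of a broad peak is averaged along the peak, and over the 10891 members the covered bases and the percentile went opposite ways (Spearman rho -0.28, a description).

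The 10 members with the highest percentile had median covered lengths of 385.5 to 931.5 bases, and many lay beside centromeres or segmental duplications. At 2 of them, near the centromere of chromosome 1, the nearest gene was LINC02798, 2635 and 2914 kb away (members 3308 and 3716 kb from it were the farthest of all), and at 2 on chromosome 17 it was WSB1, 674 and 689 kb away. The WSB1 member at chr17:26619281-26620258 was covered over 808 to 969 bases in progenitor libraries (median 932) and over 790 to 973 in neuron libraries (median 926.5). Its lowest percentile in any library was 99.9. Members near FAM90A23 and FAM90A15, copies of a multigene family on chromosome 8, belonged to the same 10, as did ones near OR4F15, CCDC200, GRAPL and LOC107987067. Reads from near-identical copies can map to any of them, and whether the submitters removed such reads or masked such regions is not given in the sources used here, so these peaks are uncertain.

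The widest members were instead broad and weak by fold. The widest by covered bases lay 660 kb from ZNF608, a zinc finger gene, at chr5:125408678-125414298. It was covered over 3666 to 5613 bases in progenitor libraries (median 5449), against 1898 to 4539 in neuron libraries (median 3950.5), and its median percentile was 9.6. Next came members near TMEM161B, HJV and METTL9 and a member inside ADGRL2, the gene of the adhesion receptor latrophilin-2. The ADGRL2 member was covered over 2913 to 4716 bases in progenitor libraries and over 3596 to 3768 in neuron libraries, and a core of 2913 bases was common to all 16. Over all members, the median width was 1608 bases (range 301 to 8973). In 9911 members at least 1 base was covered in all 16 libraries, with a median common core of 330 bases, and in 980 the 16 lists had no base in common although each held a peak.

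Members lay inside long genes and in wide intergenic stretches in nearly equal numbers. Protein-coding genes held 5614 of them (51.5%), and 5277 lay outside. Their host genes had a median length of 220 kb, against 24.2 kb for all 19974 protein-coding genes, which follows in part from the rule, since a gene shorter than 20 kb cannot hold a member. Members lay a median of 55.4 kb from a gene end (quartiles 24.6 and 131 kb), nearer than distal regions open in 2 to 15 libraries (median 80 kb), and 4.16% of members lay over 500 kb away, against 8.69%. The nearest member was 10009 bases from a gene end and the closest region left out 9996, with 256 members between 10 and 11 kb and 283 regions left out between 9 and 10 kb. Of the distal regions with a peak in at least 2 libraries on a chromosome, the lowest share of members was 5.13%, on chromosome 21, and the highest was 10.5%, on chromosome 19. A library short of 1 region was most often the shortest list: of 5946 distal regions with a peak in 15 libraries, 2595 (43.6%) lacked one in progenitor day 120 replicate 2 and 1169 (19.7%) in neuron day 60 replicate 2.

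Annotated transcript starts were dense in the members, from which the rule had kept ends of protein-coding genes but not those of other genes. Start bases of protein-coding transcripts, all inside genes, stood at 52.6 per Mb of member, against 3.90 per Mb of distal region open in 2 to 15 libraries and 430 per Mb of region open in every library near gene ends. For long non-coding RNAs (lncRNAs) the densities were 37.9, 9.33 and 81.0 per Mb. Counted as whole 300-base windows, 755 members held 972 protein-coding starts of 678 genes and 586 held 679 lncRNA starts of 615 genes. All 16 libraries covered the start base itself for 649 (66.8%) of the protein-coding and 369 (54.3%) of the lncRNA starts. Even so, 9658 members (88.7%) held no start of the table.

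**Figure D2:**
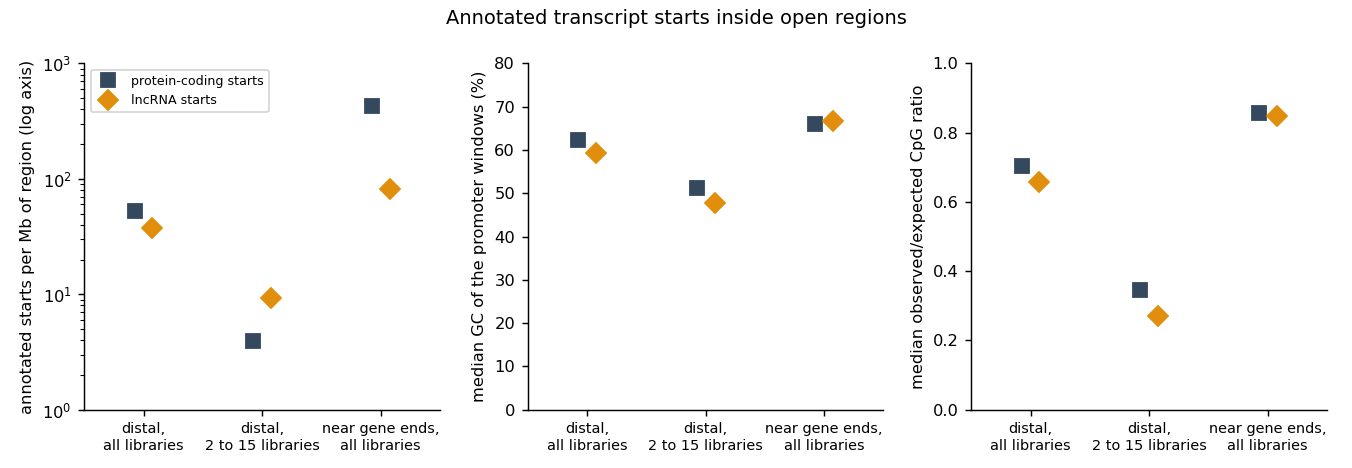
Points give annotated starts per Mb of region on a log axis, the median GC percentage of the 300-base promoter windows and their median observed over expected CpG ratio, for protein-coding and lncRNA starts. The members (left in each panel) have 52.6 protein-coding starts per Mb, between the 3.90 of distal regions open in 2 to 15 libraries and the 430 of regions open in every library near gene ends.

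The starts in members were richer in GC than those of other distal regions. Protein-coding windows in members had a median GC of 62.3% and an observed over expected CpG ratio of 0.70, against 51.3% and 0.34 in distal regions open in 2 to 15 libraries. They were close to all protein-coding windows of the table (62.3% and 0.74) and below those in regions open in every library near gene ends (66% and 0.86). The lncRNA windows had 59.3% and 0.66, against 47.7% and 0.27 in distal regions open in 2 to 15 libraries and 50% and 0.29 over all lncRNA windows. The letters GGGCGG, searched on both strands, stood in 53.2% of the protein-coding windows in members, 31.4% of those in distal regions open in 2 to 15 libraries and 56.2% of all protein-coding windows of the table. CCAAT stood in 35.6%, 29.5% and 34.7% of these windows. TATAAA was found in 7.20%, 13.0% and 9.50%, and TGANTCA, the AP-1 motif, in 5.25%, 15.7% and 6.15%. The E-box CAGATG of proneural factors was in 12%, 21.1% and 12.2% and the NFI motif TTGGCA in 12.6%, 19.0% and 11.1%. A CTCF motif was in 0.617%, 0.418% and 0.892%. GC content differs between these sets, its part in the motif shares was not tested, and a match is not a site.

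Ends of other non-coding genes lay in a small share of members, above that of distal regions open in 2 to 15 libraries. An end of a tRNA gene lay in 52 members (0.477%), against 0.0412% of distal regions open in 2 to 15 libraries, and an end of a small nuclear RNA gene in 16 (0.147%), against 0.00772%. An end of a transcribed pseudogene lay in 126 (1.16%), against 0.0566%. Less far above were small nucleolar RNA genes (0.119% against 0.0270%), microRNA genes (0.294% against 0.0740%) and other pseudogenes (0.900% against 0.419%). Regions open in every library near gene ends held them too: tRNA gene ends in 0.554%, small nuclear RNA in 0.129% and transcribed pseudogene in 0.827%. There, small nucleolar RNA gene ends lay in 0.230%, microRNA in 0.906% and other pseudogene in 0.575%. Members are wider than distal regions open in 2 to 15 libraries, with a median of 1608 against 833 bases, so a member could hold more annotation of any kind.

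The number of bases that peaks covered in a member was compared between progenitors and neurons, a measure the rule did not use, though presence in every library limits how far it can differ. Covered bases were put on the scale log2(bases + 100), centred for each library on the median over the 24797 regions open in all libraries, and tested with limma, with Benjamini-Hochberg adjustment over the 24797. Of the 10891 members, 2246 (20.6%) passed an adjusted p of 0.05, against 16.2% of all regions open in every library. Wider in progenitors were 1417 members (13.0%), against 8.60% of all regions, and wider in neurons were 829 (7.61%), against 7.59%. Near gene ends, 1770 of the 13906 regions (12.7%) were called, 716 wider in progenitors and 1054 in neurons. The median log2 difference was 0.03 over members and -0.03 over all regions, and 6217 members (57.1%) differed by at most 0.25.

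Progenitors made up 63.1% of the called members, a share that depended on the scaling: it was 77.3% with no scaling, which called 1391, and 64.8% with the library's total subtracted, which called 1458. Called members were no stronger by fold, with a median percentile of 73.4 against 75.3 for the rest, and had similar covered lengths (medians of 1003.5 and 924 bases). Of the 1417 members wider in progenitors, 1148 (81.0%) were wider there on each of the 4 days, and in 214 the centred values of the 2 populations did not overlap (1.96% of members, against 1.24% of all regions). Of the 829 wider in neurons, 628 (75.8%) were wider there on each day, and in 68 the centred values did not overlap (0.624% of members, against 0.758% of all regions). A call rested on the mean of the 4 daily differences, so the same sign on each day is in part built in. The share with the same sign among all called regions is not given here. Without progenitor day 120 replicate 2 and neuron day 60 replicate 2, the 2 shortest lists, 2634 members were called. Differences over 1 on the log2 scale were found in 167 members wider in progenitors and 38 wider in neurons, and the shares over all regions are not given here.

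**Figure D3:**
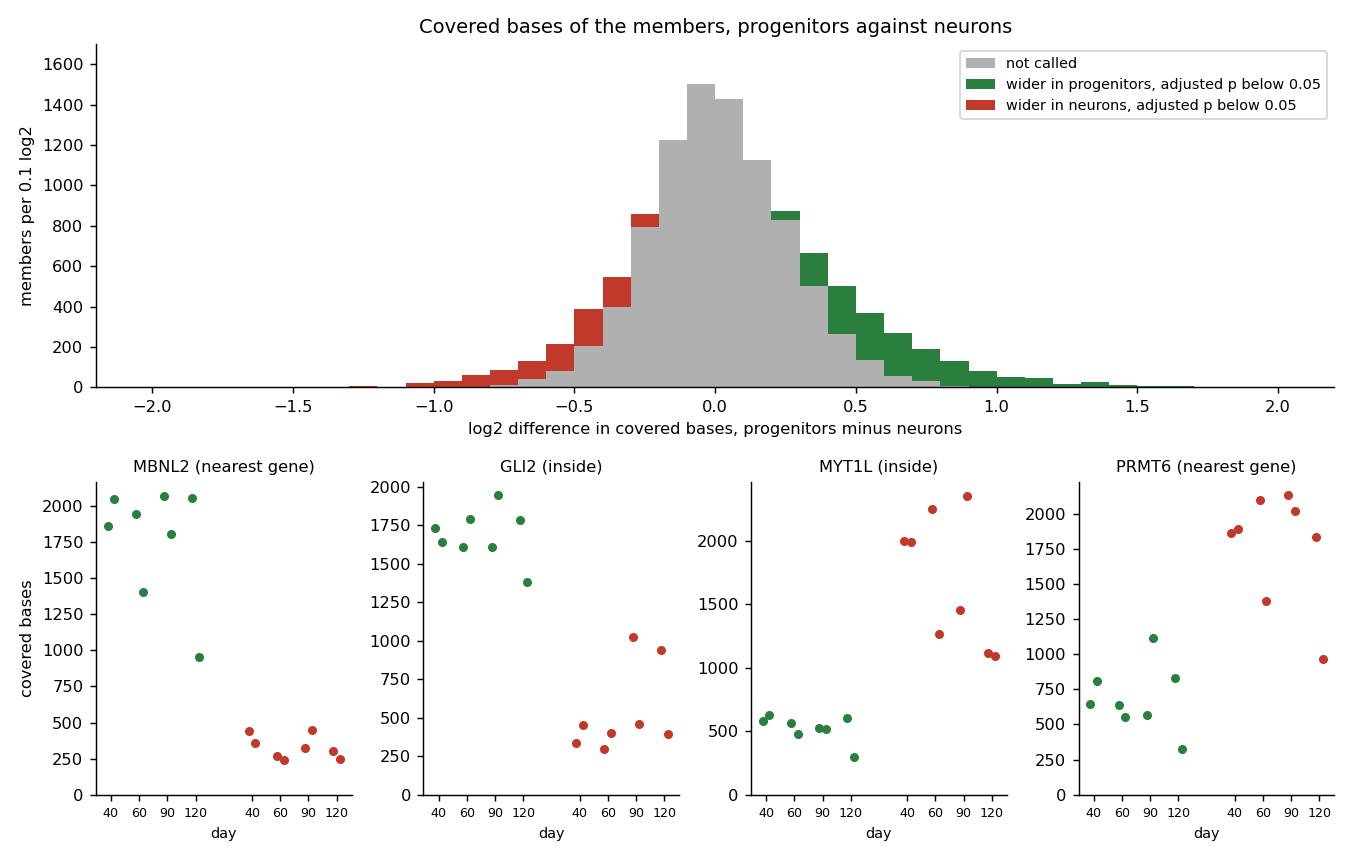
The upper panel counts the 10891 members by their log2 difference in covered bases, progenitors minus neurons, in steps of 0.1, with the 1417 wider in progenitors and the 829 wider in neurons in colour. The lower panels plot covered bases in each library for 4 of the named members, progenitors left and neurons right by day; each panel has its own axis from 0, and the populations do not overlap in the panels for MBNL2, GLI2 and MYT1L.

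Among the members wider in progenitors, the one with the largest difference lay 26.1 kb from MBNL2, which encodes an RNA-binding regulator of splicing, at chr13:97113595-97115692. Peaks covered 952 to 2074 of its bases in progenitor libraries (median 1904.5), against 243 to 447 in neuron libraries (median 312.5). The 2 populations did not overlap, and the log2 difference was 2.07 ± 0.10 (SE, limma adjusted p = 6.23e-06). No base of this member was covered in all 16 libraries, although each held a peak in it. A member inside ZMIZ1, the gene of a transcriptional coactivator, was covered over 1481 to 1840 bases in progenitor libraries (median 1648.5) and 356 to 646 in neuron libraries (median 425.5). No library of either population came near the other there, and the log2 difference was 1.61 ± 0.12 (limma adjusted p = 6.09e-05). Inside GLI2, a transcription factor of the Hedgehog pathway, a member at chr2:120892680-120895201 had 1382 to 1945 covered bases in progenitors (median 1686.5) and 293 to 1021 in neurons (median 427). Its log2 difference was 1.55 ± 0.17 (limma adjusted p = 0.000356).

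The 7 other members named by size and separation were wider in progenitors by 1.5 to 1.72 on the log2 scale. They lay near NUFIP1, SSX2IP, a centrosomal protein gene, NEGR1, a neuronal adhesion gene, and SPTLC3, and inside GABRR3, MRPS27 and SNCAIP, whose product binds alpha-synuclein. At NUFIP1 (chr13:44902791-44907300) the peaks of day 40 neurons reached 1683 and 1845 bases, against 233 to 1124 bases on the later days. Progenitor libraries there spanned 1063 to 3395 bases, so the raw lengths overlapped and the populations were apart only once each library was centred. GABRR3 had a neuron library of day 40 at 1509 bases, above the 1454 bases of the shortest progenitor list, and was likewise apart only after centring. So were MRPS27, with progenitors from 698 and neurons up to 936 bases, and SPTLC3, with progenitors from 895 and neurons up to 934. In the NUFIP1 and SNCAIP members no base was covered in all 16 libraries.

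Among the members wider in neurons whose centred values did not overlap, the largest difference was at a member inside MYT1L, a neuronal transcription factor known to repress non-neuronal genes, at chr2:2187085-2189459. It was covered over 295 to 628 bases in progenitor libraries (median 545.5), against 1090 to 2359 in neuron libraries (median 1723.5). The populations did not overlap, and the log2 difference was -1.52 ± 0.12 (limma adjusted p = 6.09e-05). A member 76.0 kb from PRMT6, an arginine methyltransferase gene, had 322 to 1118 bases in progenitors (median 642) and 968 to 2135 in neurons (median 1879), which differed by -1.32 ± 0.16 on the log2 scale (limma adjusted p = 0.000461). Its raw lengths overlapped and its centred values did not, and no base of it was covered in all 16 libraries. Inside SYBU, the gene of syntabulin, which links cargo to kinesin in axons, a member had 173 to 549 covered bases in progenitors (median 391.5) and 467 to 1456 in neurons (median 1034). Its log2 difference was -1.09 ± 0.11 (limma adjusted p = 0.000192), and it was also narrower on days 90 and 120 than before in neurons.

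Further members wider in neurons, with log2 differences of -1.33 to -1.06, lay near PRKD1, GNPDA2 and RWDD4 and inside SORBS2, MFHAS1, AGAP1 and WNT5B, a Wnt ligand gene. No base of the SORBS2 member was covered in all 16 libraries. The WNT5B member had 291 to 682 bases in progenitors (median 405) and 851 to 1441 in neurons (median 891.5), with no overlap. Of the 20 members named in the 2 directions, 19 kept their call under all 27 alternatives, which include leaving out each library in turn, and only PRKD1 lost it, at an adjusted p of 0.469 with all lists cut to the number of peaks of the shortest.

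Steady members were found as well. The one with the smallest SD over libraries lay inside ZNF846, at chr19:9767943-9769247, with a SD of 0.07 on the log2 scale. It was covered over 782 to 1301 bases in progenitor libraries (median 1190) and 978 to 1237 in neuron libraries (median 1119.5). Members inside CREB3L1 and HSP90AA1, a chaperone gene, and near BRD1 and LRRC1 had SDs of 0.08 to 0.09. These 5 had log2 differences of progenitors minus neurons from -0.06 to 0.03, which their choice for a small SD over all libraries keeps small, so no test is given. The median SD was 0.36 over members, against 0.24 over regions open in every library near gene ends. Members that held a transcript start had a median SD of 0.29 and 18.1% were called, against 0.37 and 20.9% of members with none. Those with a start were covered over a median of 1317.5 bases, against 907 with none. Regions near gene ends had a median of 1246 covered bases, against 925 in members. The part of covered length in these SDs was not tested.

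Most members shared a gene with few others, and a small number of genes had many. The members were assigned to 4943 protein-coding genes, by the gene they lay in or else the nearest one, of which 2603 had 1 member and 472 had 5 or more. AUTS2, a neurodevelopmental gene whose product works with Polycomb proteins, held 29 members over 1148 kb (chr7:69635419-70783320). Together they were covered over a median of 42.3 kb in progenitor libraries and 39.5 kb in neuron libraries, and 2 were wider in progenitors and 1 in neurons. GSE1 held 19, of which 4 were wider in each population. For comparison, 13.0% of all members were wider in progenitors and 7.61% in neurons, against 8.60% and 7.59% of all regions. AGAP1 held 16, DLG2 (a synaptic scaffold gene) and PTPRN2 held 15 each, and FRMD4A, NFIB and PDE4D 14 each.

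None of the 14 members inside NFIB, a transcription factor gene of cortical development, was called between the populations: their log2 differences ran from -0.37 to 0.27, and their summed coverage had a median of 22.7 kb in progenitors and 22 kb in neurons. Of the 13 members inside GLI2, 4 were wider in progenitors and 2 in neurons, against 13.0% and 7.61% of all members.

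Outside genes, ZNF608 was the nearest gene to 33 members that lay 24 to 736 kb from it, on both sides over 1359 kb (chr5:124127323-125486607). They were covered over a median of 44.1 kb in progenitor libraries and 38.6 kb in neuron libraries, with 7 wider in progenitors and 2 in neurons. BCOR, a transcriptional corepressor gene, had 16 and SOX11, a transcription factor gene of immature neurons, had 15, of which 1 was wider in progenitors and none in neurons. POU3F3, a cortical POU factor gene, had 14, all 149 kb or more away, and NR2F1, a nuclear receptor gene of cortical patterning, had 12. NFIA was nearest to 12, of which 5 were wider in progenitors and none in neurons, with a median coverage of 18.6 kb in progenitors and 13.7 kb in neurons. These counts stand beside 13.0% of all members wider in progenitors and 7.61% in neurons (8.60% and 7.59% of all regions). The nearest gene is a label of position here, and no link to its expression was measured. BUD13, USP25 and LSAMP had 12 or 13 each, and LINC02798 had 12, from 54.9 to 3716 kb away.

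**Figure D4:**
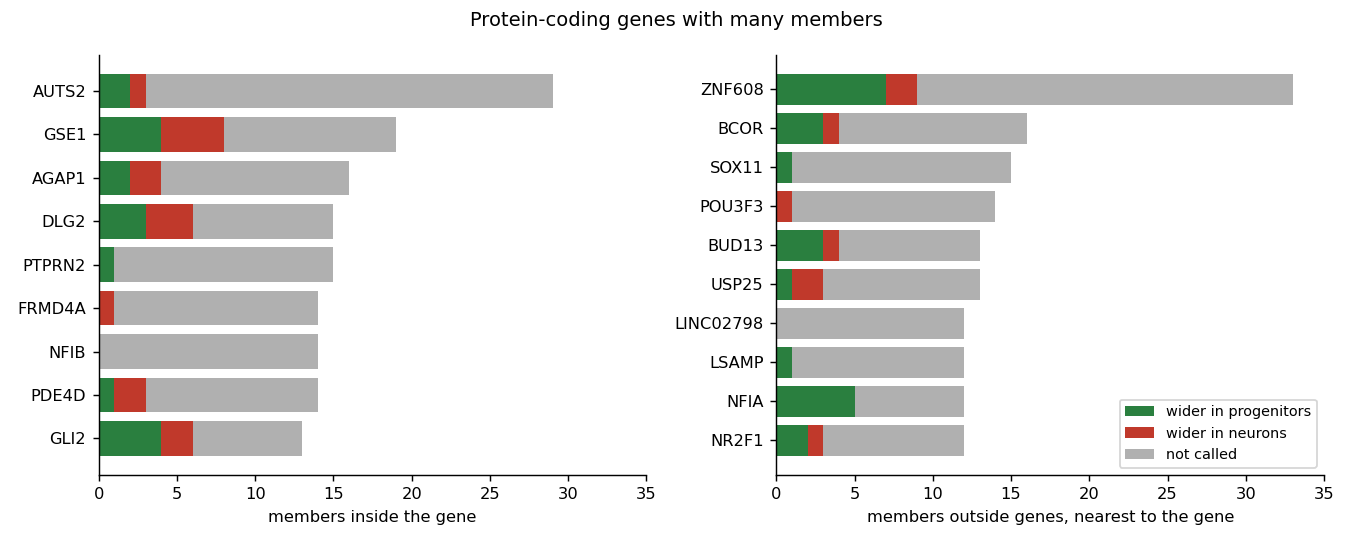
Horizontal bars count members for 9 protein-coding genes with many members inside (left) and the 10 nearest to the most members outside genes (right), split by the limma call of progenitors minus neurons. AUTS2 held 29 members and ZNF608 was nearest to 33. Most members at each gene were not called, and of all members 20.6% were called.

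Gene lists chosen with results of these data known were described by their counts beside all protein-coding genes, of which 24.7% had a member. Of 41 genes listed as forebrain and cortical transcription factors, 36 (87.8%) had at least 1, with 268 members in all. Of these, 49 were wider in progenitors and 11 in neurons (22.4% called, against 20.6% of all members). The median log2 difference of the 268 was 0.06, against 0.03 for all members. AUTS2, whose product works with Polycomb proteins, was also in this list and had the most, with 34 members inside or nearest to it. Among 20 radial glia genes 12 had a member, and 15 of their 56 members were wider in progenitors and 5 in neurons (35.7% called), with a median of 0.17. SOX2, whose reporter sorted the progenitors, was in this list with 8 members, 5 of them wider in progenitors. The figures of the list are thus not independent of the sort. SOX9, a gliogenic factor gene, had 8, with 3 wider in progenitors, and GLI3, a Hedgehog effector gene, had 14, with 2 in each direction. Of 18 pan-neuronal genes 13 had members, 65 in all, with 7 wider in progenitors and 5 in neurons (18.5% called). NCAM1 had 15 and MAP2, a dendritic microtubule protein gene, had 9, with 2 of them wider in progenitors.

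Each of the 35 axon guidance and adhesion genes had a member, 209 in all (21 wider in progenitors, 22 in neurons), and 29 of 30 synapse and channel genes had one, 89 in all (10 and 12). The called shares were 20.6% and 24.7%, near the 20.6% of all members. These are long genes, with median lengths of 639 and 439 kb, and the part of length in the counts was not tested. The genes of the transcription factor list had a median length of 28.9 kb, against 24.2 kb for all genes, though AUTS2 was 1195 kb long. Of the 268 members of that list, 134 lay inside genes. The span between genes, over which the other members lay, was not measured, and its part in the counts was not tested. Chromatin and genome architecture genes had 39 members at 11 of 20 genes, with 2 wider in progenitors and 3 in neurons (12.8% called). Of 18 housekeeping genes, 4 had a member, 8 in all. Genes of other tissues had few: 2 of 14 microglia and blood genes had 7, 4 of 12 endothelial and mural genes had 4, and 2 of 16 liver, muscle and gut genes had 2. PTPRC, a leukocyte gene, had 5 of these members although no library covered its transcript start in the table.

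SOX2, the gene that sorted the progenitors, had 8 members assigned to it, 11.9 to 527 kb away. Of these, 5 were wider in progenitors and none in neurons, against 13.0% and 7.61% of all members and 8.60% and 7.59% of all regions. The closest, at chr3:181726325-181730765, was covered over 2174 to 4316 bases in progenitor libraries (median 2580), against 329 to 2527 in neuron libraries (median 679). The ranges overlapped, and the log2 difference was 1.69 ± 0.28 (limma adjusted p = 0.00251), and it was wider in progenitors on days 40, 60, 90 and 120, by 1.83, 2.44, 1.02 and 1.46. Within 100 kb of SYN1, whose promoter drove the neuronal reporter, 2 members lay nearest to ARAF. The one 30.2 kb from SYN1 (chrX:47539711-47541717) had 183 to 693 bases in progenitors (median 562) and 527 to 1804 in neurons (median 1759.5), and its difference on the log2 scale was -1.23 ± 0.18 (limma adjusted p = 0.00144). The other, 47.7 kb away, differed by -0.12 ± 0.14 (limma adjusted p = 0.609). No member lay within 100 kb of PPP1R12C, the site of the dTomato insertion.

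Days 90 and 120 together were compared with days 40 and 60 in each population. In progenitors 208 members were called (1.91%), against 1.20% of all regions: 177 were wider late (0.883% of all regions were) and 31 wider early (0.315%). In neurons 296 were called (2.72%), against 1.71%: 173 wider late (0.948%) and 123 wider early (0.758%). At an unadjusted p under 0.05 the numbers were 1982 and 2194. The late share of called members was 85.1% in progenitors and 58.4% in neurons, and it moved with the scaling, to 66.7% and 26.3% with no scaling and, in neurons, to 84.5% with the library's total subtracted. A single library also moved it: the split was 346 wider late and 265 wider early (56.6% late) in progenitors without progenitor day 120 replicate 1, and 69 and 108 (39.0% late) in neurons without neuron day 120 replicate 1. The median log2 difference over all regions in neurons was 0.03, against 0.16 with the total subtracted and -0.10 with no scaling.

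Single libraries decided how many members were called over time. The progenitor count was 69 without day 40 replicate 1 of progenitors, 67 without day 60 replicate 2, 21 and 17 without day 90 replicate 1 or 2, and 611 without day 120 replicate 1. The neuron count was 191 and 81 without day 40 replicate 1 or 2 of neurons, 553 without day 60 replicate 1, 103 without day 90 replicate 1, 177 and 131 without day 120 replicate 1 or 2, and 150 and 148 without day 90 replicate 1 or 2 of progenitors. Only 2 of the 20 members named in progenitors and 4 of 20 in neurons kept their call under all 27 alternatives, so those 6 are given in full.

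In progenitors, a member inside COG6, a gene of a Golgi transport complex, at chr13:39765375-39768408 was covered over 2723, 2782, 2616 and 1199 bases in the day 90 and 120 libraries, against 819, 617, 876 and 706 bases in those of days 40 and 60. All late values lay above all early ones, and the log2 difference was 1.56 ± 0.14 (limma adjusted p = 0.00116). Inside NFIB, at chr9:14437369-14438896, the late libraries had 1528, 1488, 1438 and 1191 bases and the early ones 428, 571, 557 and 508. They did not overlap, with a difference of 1.41 ± 0.17 (limma adjusted p = 0.00605). In neurons the differences at these members were 0.47 ± 0.14 for COG6 and 0.59 ± 0.17 for NFIB, which did not pass (limma adjusted p = 0.138 and 0.128).

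The other members named as wider late in progenitors lay inside PARD3B, AUTS2, CCDC102B, RELN, DTNA and ENOX1 and near LSMEM1 and EPHA3, with differences of 1.41 to 1.66. Those at LSMEM1, AUTS2, CCDC102B and DTNA had no base covered in all 16 libraries. Wider early were members near MMP7, CROCC, TMEM161B and PREX1 and inside RBMS1, DAB2IP, KPNB1, RNF220, MAML3 (a Notch coactivator gene) and APLP2, with differences of -1.36 to -0.96. The CROCC and TMEM161B members likewise had no base covered in all 16 libraries. At MMP7, a matrix metalloproteinase gene, the late libraries had 770, 743, 946 and 296 bases and the early ones 2404, 2344, 2184 and 1202, a difference of -1.36 ± 0.24 (limma adjusted p = 0.0227). Its adjusted p was 0.0733 and 0.0505 without progenitor day 40 replicate 1 or 2, 0.0557 without day 60 replicate 1, 0.0924 and 0.0860 without day 90 replicate 1 or 2, and 0.0542 without day 120 replicate 2.

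In neurons, a member inside FAM110B (chr8:58037550-58039778) had 1674, 1649, 1871 and 1670 bases in the late libraries, against 421, 260, 307 and 504 in the early ones. The difference was 2.1 ± 0.19 (limma adjusted p = 0.00232), and late and early values did not overlap. No base of this member was covered in all 16 libraries. A member inside ADGRV1, an adhesion receptor gene, at chr5:90610442-90614148 had 3275, 3226, 2802 and 2664 bases late and 927, 394, 1897 and 2072 early, a difference of 1.47 ± 0.19 (limma adjusted p = 0.00891). In progenitors it was covered over 2046 to 3684 bases on all days. The late minus early difference in progenitors minus that in neurons was -1.42 ± 0.26 at ADGRV1 and -1.35 ± 0.27 at FAM110B. Neither passed (limma adjusted p = 0.0614 and 0.0786). The members that narrowed lay inside BAIAP2, which encodes an actin regulator of synapses, and EDAR, the ectodysplasin receptor gene. BAIAP2 (chr17:81051022-81053615) had 529, 486, 531 and 473 bases late and 1499, 2193, 2412 and 1206 early (-1.49 ± 0.20, limma adjusted p = 0.00891). EDAR (chr2:108934923-108937475) had 648, 652, 457 and 617 late and 2327, 2146, 1560 and 1555 early (-1.38 ± 0.13, limma adjusted p = 0.00232). Late and early neuron libraries did not overlap at any of the 4.

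Further named members were wider late in neurons inside PTCH1, the Hedgehog receptor gene, DISP1, PDXK and EML1 and near EPHA3, CAMK1G and DCN, with differences of 1.38 to 1.99. They were narrower late inside CHST15, CLYBL and PTPRZ1, a phosphatase gene of radial glia, and near NFASC, FAM180A, C8orf90, TMEM72 and ADRA1A, with differences of -1.81 to -1.26. The PTCH1 and NFASC members had no base covered in all 16 libraries. The EPHA3 member (chr3:89041965-89044062) was named in both populations. In neurons it had 1769, 1523, 1726 and 1584 bases late and 363, 406, 585 and 234 early (1.99 ± 0.29, limma adjusted p = 0.0106), a call kept in each of the 16 fits that left a library out. In progenitors it had 2013, 1783, 1806 and 1312 bases late and 434, 623, 1450 and 370 early (1.43 ± 0.29, limma adjusted p = 0.0402). In 12 of those 16 fits that call was lost (adjusted p up to 0.155), and the 1450 bases of day 60 replicate 1 overlapped the late values before centring.

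**Figure D5:**
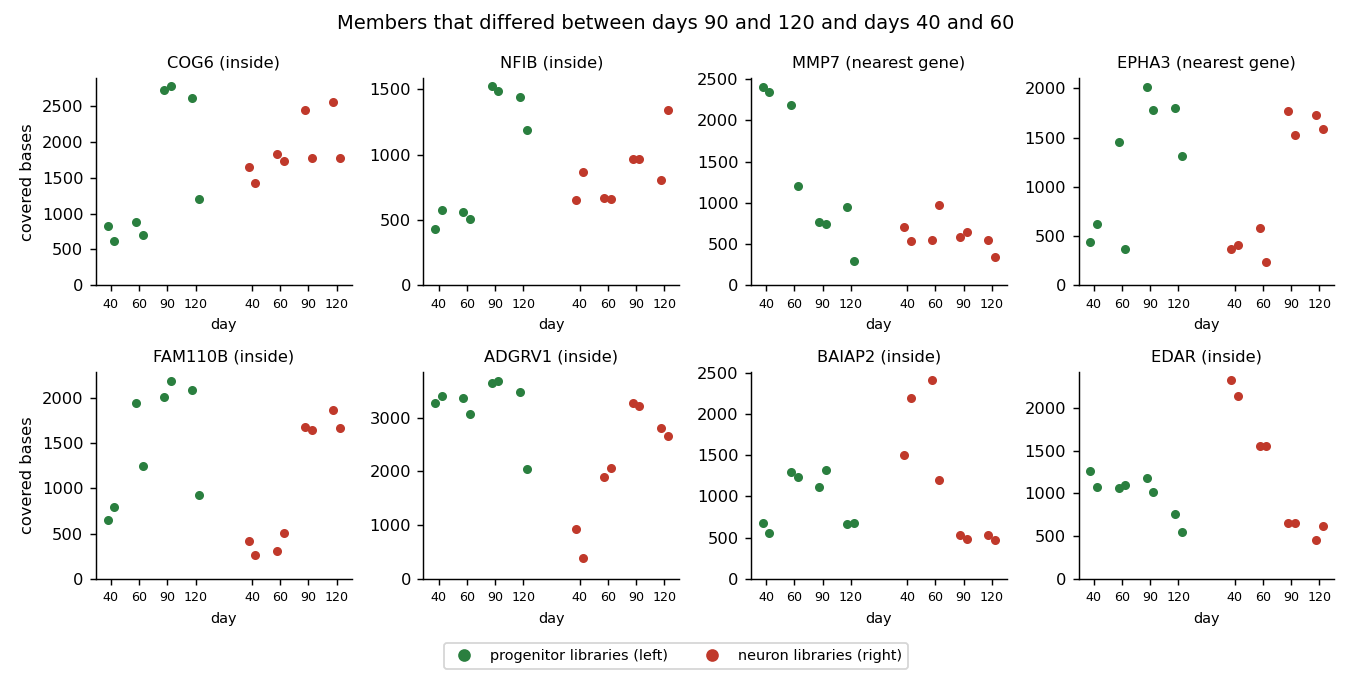
Covered bases in each library for 8 named members, progenitors left and neurons right by day, each panel with its own axis from 0. In the COG6 and NFIB panels the 4 late progenitor libraries lie above the 4 early ones, and the 4 late neuron libraries lie above the 4 early ones in the FAM110B panel and below them in the EDAR panel.

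Whether the change over time differed between the populations was tested as the late minus early difference in progenitors minus that in neurons. Of the members, 19 were called (0.174%), against 0.133% of all regions, a share near the background. In 17 the value was more positive in progenitors (0.101% of all regions were) and in 2 more positive in neurons (0.0323%), and 1652 members had an unadjusted p under 0.05. That balance was not stable: it was 121 and 140 without progenitor day 120 replicate 1, 71 and 80 without neuron day 60 replicate 1, and 3 and 3 with the library's total subtracted. None of the 19 kept its call under all 27 alternatives. In limma the count was 0 without progenitor day 40 replicate 1 or progenitor day 90 replicate 1 or 2 (1422, 1294 and 1324 members at an unadjusted p under 0.05). It was 1 or 2 without day 40 replicate 2 or day 60 replicate 2 of progenitors, and likewise without day 40 replicate 1 or day 120 replicate 2 of neurons. It was 261 and 80 without day 120 replicate 1 or 2 of progenitors. For neurons it was 4 without day 40 replicate 2, 151 and 30 without day 60 replicate 1 or 2, 4 and 8 without day 90 replicate 1 or 2, and 12 without day 120 replicate 1. The 19 members and their values stand in the closing section.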

How the data were processed

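The members and gene lists were chosen with earlier results of these data known. The submitters' processing notes name MACS2 2.1.2, BWA 0.7.17, SAMtools 1.9, Trim Galore 0.5.0 and Picard, and the build hg38. How duplicates, mitochondrial and multimapping reads, blacklisted regions and the Tn5 shift were treated is not given in the sources used here. Each of the 16 libraries had its own deposited broad peak list. Of its deposited values, column 5 is a whole-number score, column 7 the fold enrichment (a ratio), and columns 8 and 9 the −log10 p-value and −log10 q-value. Fold and −log10 q only ranked or filtered peaks within a list. The lists hold no read counts, so depth is unknown and no counting interval could be given; a deeper library can list more and wider peaks. Peaks off chromosomes 1 to 22 and X, 95 to 387 per library, were left out.

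Positions came from the RefSeq gene table of GRCh38.p14 (19974 protein-coding genes) and its promoter and microRNA tables. A search for motifs at the members' centres had been planned; without a genome, motifs were searched in the promoter windows instead, and the GC box, CCAAT box and TATA box were added after the data were seen. Covered bases per region and library were taken as log2(bases + 100) and centred per library on the median over the 24797 regions. The model, in limma 3.58.1 (R 4.3.3), had 1 mean for each of 8 groups and a trended prior variance, and p-values were adjusted by Benjamini-Hochberg over all 24797. The script was tested on simulated data. Other steps used Python 3.11.15, numpy 2.4.6, pandas 2.3.3 and matplotlib 3.10.9. Alternatives changed the scaling, the pseudocount (1 or 500), the regions fitted, the peak threshold (−log10 q of at least 2), list length, trend, replicate block and each library in turn.

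Members are named by the gene they lie in, otherwise by the nearest gene end. Named were the 10 with the highest median percentile, the 5 widest, the 5 farthest from a gene end, the 5 with the smallest SD, for each contrast up to 10 per direction with the largest difference among called members whose centred values did not overlap, the 10 genes with the most members inside and the 10 nearest to the most outside, and the 3 reporter loci. Some items that this rule gave are not reported here. The main model did not pair progenitor and neuron libraries by replicate number. Correlations of their deviations were between -0.07 and 0.16 over the 4 days. With 2 libraries per group these values cannot decide whether libraries of the same number shared a source.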

Additional observations from a re-analysis of the deposited data

Results flagged for a closer look

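Of 52 values checked in the 2 populations of 8 libraries, 8 had 1 library far from the rest by Dixon's test, which chance does in about 1 in 20. Progenitor day 120 replicate 2 stood apart from the other progenitor libraries in its covered length of 36.9 Mb, its covered length in members of 7.29 Mb, the members' share of 19.8% and their median of 578 covered bases. Single members were checked on the centred log2 scale. On it the same library stood apart at the members inside GABRR3 (1454 covered bases) and MRPS27 (698). Among neuron libraries, day 120 replicate 1 stood apart at MRPS27 with 936 bases and day 60 replicate 1 at WNT5B with 1441.

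At 19 members the late minus early difference itself differed between progenitors and neurons (limma, Benjamini-Hochberg adjusted p under 0.05 for the interaction). The value, on the log2 scale as progenitors minus neurons, was 1.93 at RYK, 1.82 at PCMTD1, 1.78 at KIRREL3, 1.78 at SGCD, 1.67 at PCBP3, 1.59 at FAM180A, 1.54 at TPD52, 1.49 at LAMB3, 1.49 at SPATA31D4 and 1.46 at ZNF503. It was 1.42 at MAGI1, 1.35 at SYBU, 1.26 at SPDYE21, 1.23 at CD8B2, 1.13 at EDAR, 0.93 at DPF3 and 0.81 at CALM2. It was negative at MACF1, -1.33, and at TET3, -1.30. At MAGI1, progenitor libraries had 3841, 3772, 3656 and 1754 covered bases on days 90 and 120, against 3287, 2283, 3248 and 2279 on days 40 and 60, and neuron libraries had 1999, 1340, 931 and 841, against 3276, 3134, 2860 and 2864. At TET3, progenitor libraries had 858, 846, 879 and 529 bases late, against 782, 811, 1105 and 1111 early, and neuron libraries had 1212, 1096, 1169 and 851, against 747, 821, 253 and 311. Each of the 19 lost its call in at least 8 of the 16 fits that left out a library.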

How the results depend on the processing

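The rule gave 10891 members, against 7786 with peaks at a −log10 q of at least 2, 6723 with lists cut to the shortest, 1236 where peaks had to cover 50% of the region in every library, 7079 more than 10 kb from the end of any gene of the table, and 10889 to 13486 with 1 library left out. Between progenitors and neurons 2246 members were called. The count was 1458 with the library's total subtracted, 1391 with no scaling, and 1579 to 2530 with a library left out; the 9 other settings gave 1572 to 2652. In progenitors over time, 208 became 112 with the total, 9 with no scaling, 531 when regions in at least 2 libraries were fitted, 385 with lists cut to the shortest, and 17 to 611 with a library left out. In neurons over time, 296 became 57 with no scaling, 730 with regions in at least 2 libraries, 606 with cut lists, 557 without the 2 shortest lists, and 81 to 553 with a library left out. The interaction, 19 by limma, became 6 with the total, 0 with no scaling (1135 at an unadjusted p under 0.05), 8 and 43 with pseudocounts of 1 and 500, 447 with regions in at least 2 libraries, 128 at a −log10 q of at least 2, 437 with cut lists, 12 without a trend, 150 without the 2 shortest lists, and 0 to 261 with a library left out. The replicate block gave 2230, 177, 257 and 9 calls in the 4 comparisons. With cut lists, 2 members reversed: PREX1 in progenitors over time (1.32, adjusted p = 0.558) and PTPRZ1 in neurons (0.82, adjusted p = 0.694). Of the calls between populations, 59.8% to 98.7% were shared with each setting that kept all libraries. The cause of these shifts was not tested. Quantile normalization and the fit without the 2 shortest lists were chosen after seeing the data; where a group was left with 1 library, it was assumed to vary like the others.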
